A study of Bos taurus with 27 samples.

Results

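The genes described here are 38 genes of glucose uptake, glycolysis, the pentose phosphate pathway, lactate export and glycogen turnover, out of 32637 genes counted in bovine (Bos taurus) blastocysts. They were chosen by name, by what their proteins do, and all 38 were found in the table of counts. The samples were 27 pools, each holding the RNA of 2 in vitro produced blastocysts that were expanding or expanded and of the best quality score. The oocytes had been matured in the presence of fluid taken from preovulatory follicles, which the study sorted into greater and lesser maturity, fertilised with semen of 1 bull and cultured until day 8. The labels do not say which class of fluid, or which IVF replicate, each pool came from, so no pool was placed in a treatment and the values below describe all 27 pools as unassigned samples.

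Glucose enters a cell through carriers of the SLC2A family, is phosphorylated by a hexokinase and is split by the glycolytic enzymes to pyruvate, which lactate dehydrogenase can turn into lactate for export by SLC16A carriers. A branch after the hexokinase step, the pentose phosphate pathway, yields NADPH for reduction and ribose for nucleotides. Cattle embryos are known to take up little glucose before genome activation and much more once the blastocyst forms, when trophectoderm and inner cell mass grow.

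Reads assigned to genes summed to 10517606 in the shallowest pool and 44253564 in the deepest, so 1 CPM (counts per 1000000) stood for 10.5 and 44.3 counts there. A floor of 3 counts, taken as the smallest amount told from 0, was between 0.0678 and 0.285 CPM. This floor covers counting error only. All 6 trophectoderm markers examined (CDX2, GATA2, GATA3, TFAP2C, KRT8, KRT18) and all 3 epiblast markers (NANOG, SOX2, POU5F1) were at 1 CPM or more in all 27 pools. Of 5 hypoblast markers, SOX17 had a median of 0 CPM and GATA4 of 0.896 CPM, while GATA6, PDGFRA and HNF4A were at 1 CPM or more in each pool. Summed levels of 4 leukocyte markers were between 3.29 and 18.3 CPM, those of 2 sperm markers between 0 and 19.9 CPM, and those of 7 cumulus or granulosa cell markers between 19.8 and 77.2 CPM. The part of these other cells in the levels below was not tested. Pool 31 had the fewest genes with a count, 15491, and pool 9 had the highest interferon tau level. No pair of pools held the same counts within counting error. The reads come from the 3′ end of each cDNA and were not divided by transcript length, so differences between genes below are differences in 3′ reads.

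Glycolysis and its side paths were read deeply in these embryos. Of the 38 genes, 34 reached 1 CPM in at least 12 pools, the study's own limit, and 30 reached it in all 27 pools; the share was 89.5%, against 37.7% of all 32637 genes. The 38 genes together took between 1.07% and 1.35% of the counts of a pool, with a median of 1.23%. The 17 glycolytic enzymes summed to a median of 5331 CPM, between 4695 CPM in pool 35 and 6393 CPM in pool 9, a 1.36-fold range. The 6 pentose phosphate enzymes summed to a median of 2051 CPM (1711 to 2708 CPM). For comparison, 83 subunits of oxidative phosphorylation, the mitochondrial route to ATP, summed to a median of 57452 CPM.

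**Figure D1:**
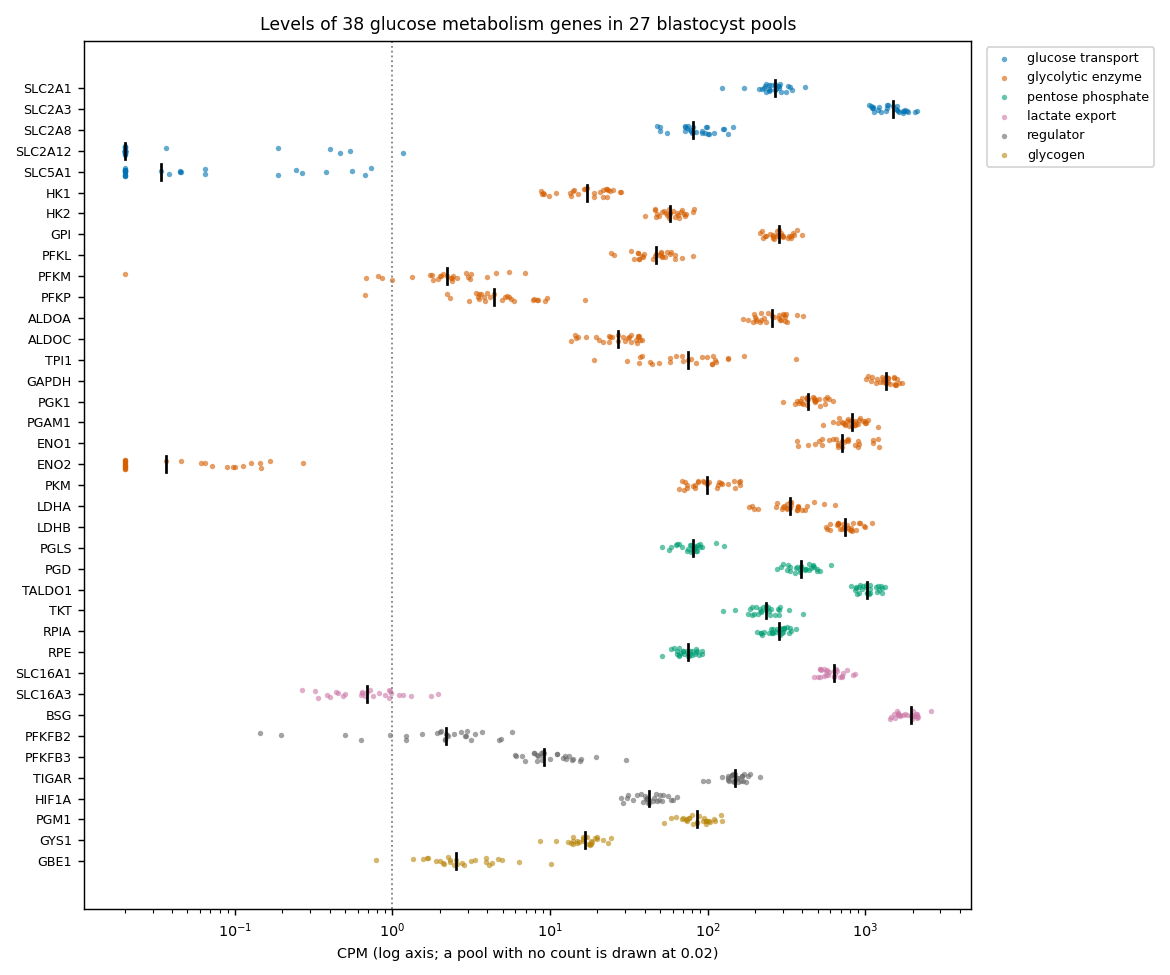
Each point is the level of 1 gene (vertical axis, grouped by role) in 1 of 27 blastocyst pools, in CPM on a log axis, and each black bar is the median. SLC2A3, GAPDH, TALDO1 and BSG have medians between 1031 and 1958 CPM, whereas SLC2A12, SLC5A1, ENO2 and SLC16A3 lie mostly below the dotted line at 1 CPM.

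Among the glucose carriers examined, SLC2A3 (GLUT3), a high-affinity carrier, led in all 27 pools. Its level ran from 1059 CPM (pool 12) to 2135 CPM (pool 33), with a median of 1504 CPM, and the gene is found at 101438340 to 101522167 of chromosome 5 (ARS-UCD2.0 assembly). SLC2A1 (GLUT1), the carrier of basal uptake in most tissues, ran from 123 CPM (pool 9) to 415 CPM (pool 28), with a median of 266 CPM. SLC2A8 (GLUT8), an intracellular hexose carrier described in mouse blastocysts, ran from 47.4 CPM (pool 9) to 144 CPM (pool 31), with a median of 81.0 CPM. Within each pool SLC2A3 made up between 74.0% and 87.8% of the reads of SLC2A1, SLC2A3, SLC2A8 and SLC2A12, and SLC2A1 between 8.53% and 20.4%. With the 10 SLC2A genes examined here counted, SLC2A5 included, the SLC2A3 share was between 56.8% and 80.7%. The lowest SLC2A3 share was above the highest SLC2A1 share, so the order of SLC2A3 and SLC2A1 was the same in each pool. SLC2A12 had no count in 21 pools and SLC5A1, the sodium-coupled carrier of gut and kidney, in 13 pools; at these depths a level under 0.285 CPM could go unseen.

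Hexokinase and phosphofructokinase, which open and commit the pathway, were each read from several genes. HK2, a hexokinase common in growing cells, ranged from 40.3 to 81.9 CPM around a median of 57.6 CPM. HK1, the hexokinase of most adult tissues, ranged from 8.70 to 28.4 CPM around a median of 17.3 CPM. HK2 held between 67.4% and 86.8% of their reads, with a median of 77.5%, and was above HK1 in all 27 pools. HKDC1, a further hexokinase that is outside the 38 genes, had a median of 34.3 CPM (13.3 to 78.3 CPM). With HKDC1 and HK3 counted too, HK2 held between 38.2% and 64.6% (median 52.3%) and led in 23 of 27 pools, the exceptions being pools 5, 25, 28 and 31. Of the phosphofructokinases, which catalyse the step that commits sugar to glycolysis, the liver form PFKL led with a median of 46.7 CPM (24.3 to 80.3 CPM). The platelet form PFKP had a median of 4.43 CPM and ranged from 0.666 CPM in pool 28 to 16.7 CPM, the highest pool being set apart from the next at 9.64 CPM. The muscle form PFKM had a median of 2.23 CPM and no count in 1 pool. PFKL held between 73.8% and 95.2% of the reads of the 3 genes.

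From GAPDH to ENO1 the steps of the pathway had higher levels than the steps before them. GAPDH, the dehydrogenase that makes the first NADH, ranged from 1009 to 1722 CPM around a median of 1357 CPM, and no pool stood apart. PGAM1, the phosphoglycerate mutase, had a median of 823 CPM (539 CPM in pool 9 to 1214 CPM in pool 32). ENO1, the enolase, had a median of 711 CPM (367 to 1232 CPM) while ENO2, the neuronal enolase, was at most 0.270 CPM. ENO3, the muscle enolase, from the wider list of glucose metabolism genes, had a median of 33.0 CPM (up to 56.2 CPM), and ENO1 held between 90.7% and 97.7% of the reads of the 3 genes. PGK1, the kinase that makes the first ATP, had a median of 436 CPM (299 to 627 CPM). Upstream of these, GPI (isomerase) had a median of 285 CPM (214 to 399 CPM) and ALDOA (aldolase) one of 256 CPM (167 to 401 CPM). ALDOA held between 84.4% and 96.4% of the reads of ALDOA and ALDOC, the latter at a median of 27.1 CPM. PKM, pyruvate kinase, was lower than its neighbours in the pathway, at a median of 98.6 CPM (65.8 to 161 CPM). Genes such as GAPDH, TPI1, PGAM1, PKM, LDHA and ENO1 have processed copies elsewhere in mammalian genomes, so reads shared with a copy may have been lost or split, and their levels are uncertain to that extent.

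Both forms of lactate dehydrogenase were abundant. LDHB, the heart form that favours pyruvate, ran from 561 CPM in pool 35 to 1111 CPM (median 741 CPM). LDHA, the muscle form that favours lactate, ran from 184 CPM (pool 32) to 641 CPM (pool 5), with a median of 333 CPM. LDHB led in all 27 pools, but its share ran from 56.8% in pool 35 to 81.7% in pool 32, with a median of 69.9%. For export, SLC16A1 (MCT1) had a median of 633 CPM (473 to 867 CPM) and SLC16A3 (MCT4) one of 0.685 CPM, and SLC16A7 (MCT2), from the wider list, one of 36.3 CPM (11.1 to 63.0 CPM). SLC16A1 held between 91.8% and 98.0% of the reads of these carriers with SLC16A8. BSG (basigin), the partner protein that carries SLC16A1 to the membrane, was the most abundant of the 38 genes at a median of 1958 CPM (1431 to 2619 CPM).

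**Figure D2:**
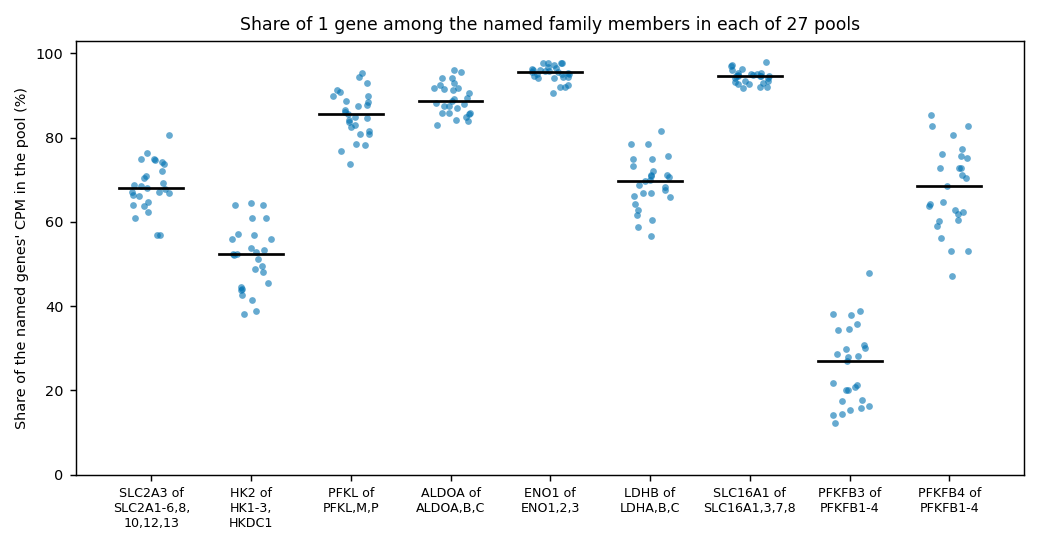
Share of 1 gene (vertical axis, percent of the CPM of the family members named under it, wider list included, within a pool) for 8 families, 1 point per pool for 27 pools, with the median as a black bar. ENO1 and SLC16A1 stay above 90% in each pool, HK2 ranges from 38.2% to 64.6% and LDHB from 56.5% to 81.6%, and PFKFB4 lies above PFKFB3 in all pools but 1.

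Among the pentose phosphate enzymes, TALDO1, the transaldolase of the non-oxidative arm, led with a median of 1031 CPM (811 to 1339 CPM). PGD, which makes NADPH and ribulose 5-phosphate, had a median of 393 CPM (274 CPM in pool 9 to 610 CPM in pool 32). RPIA had a median of 286 CPM (205 to 362 CPM) and TKT, the transketolase, one of 234 CPM (126 CPM in pool 41 to 402 CPM in pool 32). PGLS and RPE had medians of 80.8 and 74.7 CPM. All 6 were above 50 CPM in each pool.

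Regulators were lower. TIGAR, a phosphatase that lowers fructose 2,6-bisphosphate and is known to favour the pentose phosphate pathway, had a median of 148 CPM (93.8 to 215 CPM). HIF1A, the oxygen-sensitive factor that activates glycolytic genes, had a median of 42.2 CPM (28.1 to 63.5 CPM). PFKFB3, which makes fructose 2,6-bisphosphate, ranged from 5.97 to 30.3 CPM around a median of 9.10 CPM, and PFKFB2 from 0.145 to 5.70 CPM around 2.20 CPM. PFKFB4, from the wider list, was higher than both, with a median of 29.5 CPM (13.8 to 54.1 CPM), and led the PFKFB genes in all pools but 1. For glycogen, PGM1 had a median of 86.1 CPM, GYS1 (glycogen synthase) one of 16.7 CPM and GBE1 (branching enzyme) one of 2.52 CPM.

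The spread between pools was measured as the interquartile range (IQR) of log2(CPM + 1). The 34 retained genes had a median IQR of 0.37, between 0.24 and 1.19, against 0.52 for all 12310 retained genes, 0.26 for 80 oxidative phosphorylation subunits and 0.31 for 15 enzymes of the tricarboxylic acid cycle. Since the measure varies with level, each gene was also ranked among retained genes in the same decile of mean CPM. On that ranking 23 of the 34 were above the middle, with a median at the 61.5th percentile, against the 40.3rd for oxidative phosphorylation. By group the median percentile was 64.6 for glycolytic enzymes and 57.4 for pentose phosphate enzymes. These are descriptions, with no test.

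TPI1, the triose phosphate isomerase, had the largest IQR (chromosome 5, from 103580104 to 103583461). It went from 19.1 CPM in pool 35 to 363 CPM in pool 28 (median 75.4 CPM), which is 18.9-fold (PFKP, at lower counts, spanned 25.1-fold), and the second highest pool had 170 CPM. The IQR was 1.19, at the 98.9th percentile for its level. The other wide ones were PFKP (0.78), PFKFB2 (0.73), HK1 (0.72) and GBE1 (0.69), of which only HK1 was above the 80th percentile for its level, the other 3 being at or under the 60.2nd. The steadiest were TIGAR (0.24), PGLS (0.25), RPIA (0.26), GAPDH (0.27) and SLC2A1 (0.29), and GAPDH, a common reference gene, was at the 48.3rd percentile for its level.

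Interferon tau, the trophectoderm product by which a ruminant embryo signals its presence to the mother, gave a measure of how pools differed. Its summed level over 4 genes was between 7.21 CPM in pool 36 and 597 CPM in pool 9, with a median of 41.9 CPM and 265 CPM in the next highest, pool 14. These genes are near-identical, so only their sum was used. The level of every one of the 12310 genes was fitted against log2(interferon tau CPM + 1) with edgeR's quasi-likelihood test, and slopes are log2 changes per doubling of that quantity. In bulk samples, fewer cells of a type and less RNA per cell cannot be told apart. Of the 34 genes, 6 were called at an adjusted p of 0.05 or less, which is 17.6%, against 2.32% of all genes tested. The median slope of the 34 was 0.0030, beside -0.0030 over all genes.

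Of these, 4 were lower in pools with more interferon tau, where 0.739% of all genes were called lower. PGD (chromosome 16, from 43158594 to 43173317) had a slope of -0.13 (SE 0.031, n = 27, edgeR adjusted p = 0.0248). TKT (chromosome 22, from 47707313 to 47730824) had a slope of -0.14 (SE 0.036, edgeR adjusted p = 0.0349). These are enzymes of the oxidative and non-oxidative arms of the pentose phosphate pathway. PGAM1 (chromosome 26, from 18649174 to 18655669) had a slope of -0.10 (SE 0.028, edgeR adjusted p = 0.0434). SLC2A1 (chromosome 3, from 103309108 to 103337308) had a slope of -0.13 (SE 0.035, edgeR adjusted p = 0.0421). Over the whole range of interferon tau, these slopes amount to fitted levels 1.56-fold to 1.81-fold lower. Pool 9 had the lowest level of PGD, PGAM1 and SLC2A1 of all pools. PGD was at 274 CPM in pool 9, 363 CPM in pool 14 and 497 CPM in pool 36, and TKT at 149, 186 and 266 CPM in the same pools. Pool 9 also had the highest summed leukocyte markers, 18.3 CPM, and the part of these in the slopes was not tested.

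LDHA and PFKP were higher, where 1.58% of all genes were called higher. LDHA (chromosome 29, from 26290889 to 26302946) had a slope of 0.17 (SE 0.042, edgeR adjusted p = 0.0251), which is 2.08-fold over the range. It was at 549 CPM in pool 9, and at 209, 192 and 184 CPM in pools 36, 28 and 32, the 3 pools with the least interferon tau. In pools 14, 19 and 42, which had the most interferon tau after pool 9, it was at 371, 333 and 306 CPM, near its median. PFKP (chromosome 13, from 45107875 to 45160801) had a slope of 0.35 (SE 0.089, edgeR adjusted p = 0.0331), 4.45-fold over the range. LDHB had no call, and neither did any other pentose phosphate enzyme.

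The calls depended on single pools. With all pools, 11 of the 34 genes had an unadjusted p under 0.05 in edgeR, beside 16.3% of all genes, and without pool 9 there were 8. Without pool 9, none of the 34 genes was called by edgeR, and 45 genes were called in all. The slopes without it kept their signs, at -0.12 for PGD, -0.13 for TKT, -0.089 for PGAM1, -0.091 for SLC2A1, 0.16 for LDHA and 0.39 for PFKP, with adjusted p from 0.0740 to 0.244. Of the 34, 1 was called without pool 32 (1.24% of all genes), 2 without pool 15 (1.45%) and 3 each without pools 5, 23 and 28 (1.7%, 1.7% and 1.71%). When each pool in turn was left out, PGD remained called in 25 of 27 fits (lost without pools 9 and 32), LDHA in 23 (lost without 9, 28, 32 and 36), PFKP in 23 (lost without 9, 15, 28 and 32) and TKT in 21 (lost without 5, 9, 15, 23, 24 and 32). SLC2A1 remained called in 16 and PGAM1 in 11. Other measures moved with interferon tau too: Spearman's rho over the 27 pools was 0.31 with the total count, -0.45 with hypoblast markers, -0.25 with epiblast markers and 0.47 with XIST, the RNA of the inactive X, and -0.57 with Y-linked transcripts over the 18 pools rich in them. With the total count added to the model, 1.88% of all genes were called. PGD, LDHA and PFKP stayed called there, and SLC2A1, TKT and PGAM1 did not (adjusted p = 0.121, 0.0521 and 0.0531 in edgeR). Within those 18 pools PGD alone of the 34 was called, beside 1.02% of all genes, and the slopes of the other 5 kept their signs.

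**Figure D3:**
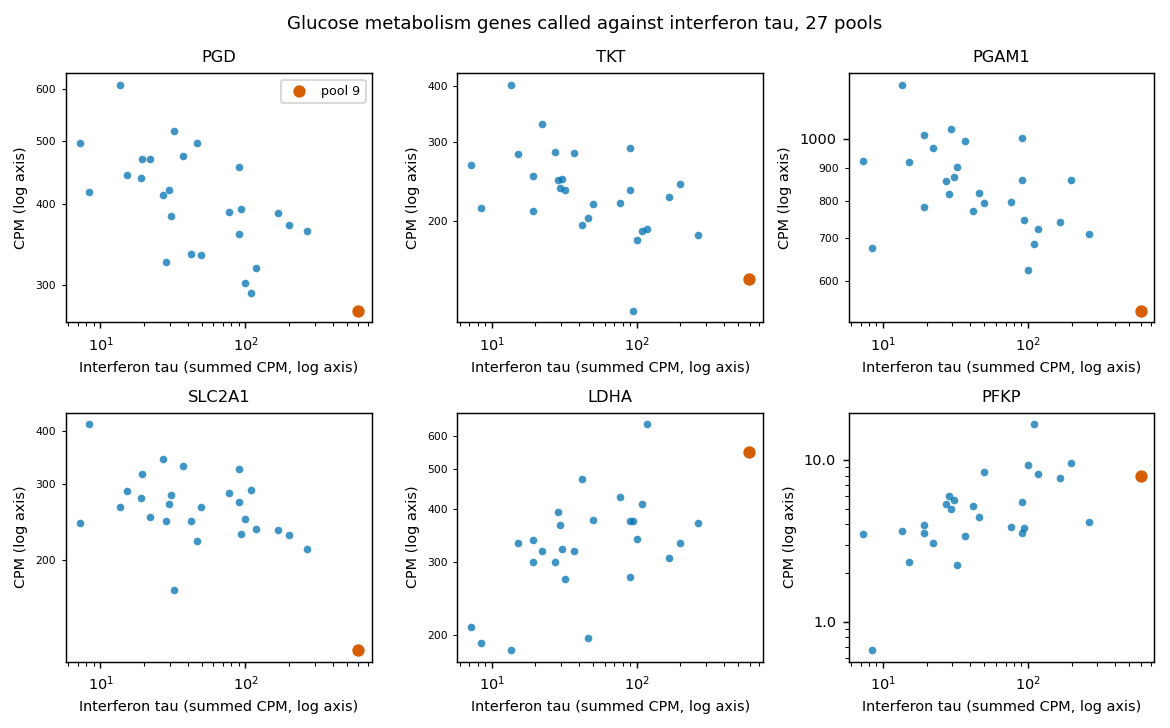
Level of the 6 called genes (vertical axes, CPM, log axes) against summed interferon tau (horizontal axes, CPM, log axes), 1 point per pool, with pool 9 in orange. PGD, TKT, PGAM1 and SLC2A1 are lower to the right and LDHA and PFKP higher, with pool 9, at 597 CPM of interferon tau, at the end of each plot.

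The same genes were also related to each other across the 27 pools. These correlations are given as descriptions, without p, since the points share library preparation, depth and scaling to CPM. PGAM1 and TKT had the highest rho of all 561 pairs, 0.81 (Pearson's r of log2 values 0.79), and leaving out the 2 pools with the most extreme PGAM1 levels gave an r of 0.67. PGAM1 and PGD had a rho of 0.69 (r 0.75, and 0.62 without 2 pools), and PGD and TKT one of 0.63. PGD and PFKP had the lowest rho of all pairs, -0.82 (r -0.68, and -0.64 without 2 pools), followed by PGD and LDHA at -0.81 (r -0.77, and -0.73 without 2 pools). LDHA and PFKP had a rho of 0.58. SLC2A1 was less closely tied to the others, with rho from -0.27 (PFKP) to 0.47 (TKT), and without its 2 most extreme pools r was 0.025 with PGD and 0.034 with LDHA. LDHA and TKT had a rho of -0.54, and PFKP and PGAM1 one of -0.45. These genes had been called against the same measure, 4 lower and 2 higher, and like or opposite rankings follow in part from that choice.

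The glycolytic enzymes did not move as 1 block. Over the 120 pairs of the 16 retained enzymes the median rho was 0.022, beside 0.025 over all pairs of retained genes. It was 0.10 in the tricarboxylic acid cycle and 0.29 among oxidative phosphorylation subunits. With library sizes scaled by edgeR's TMM factors, the median was 0.037 for the enzymes and -0.0005 over all pairs. Pairs at a rho of 0.5 or more made up 9.17% (11 pairs), against 1.88% of all pairs of retained genes and 23.5% among oxidative phosphorylation subunits. Pairs at -0.5 or less were 2, or 1.67%, against 1.15% of all pairs. The highest were PFKL with ENO1 (0.74), PGK1 with LDHB (0.68), TPI1 with ENO1 (0.61), HK1 with HK2 (0.61) and PFKL with ALDOA (0.60), and with the 2 most extreme pools left out each stayed at 0.51 or more. The lowest were GPI with ENO1 (-0.56), ALDOA with LDHA (-0.52) and PFKP with PGAM1 (-0.45). Outside glycolysis, PGLS rose and fell with BSG (0.68) and HK2 with PFKFB2 (0.65) and SLC2A3 (0.63), while RPIA was opposed to ENO1 (-0.70). HIF1A had a median rho of 0.067 with the 16 enzymes, and TIGAR the highest such median, 0.21.

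**Figure D4:**
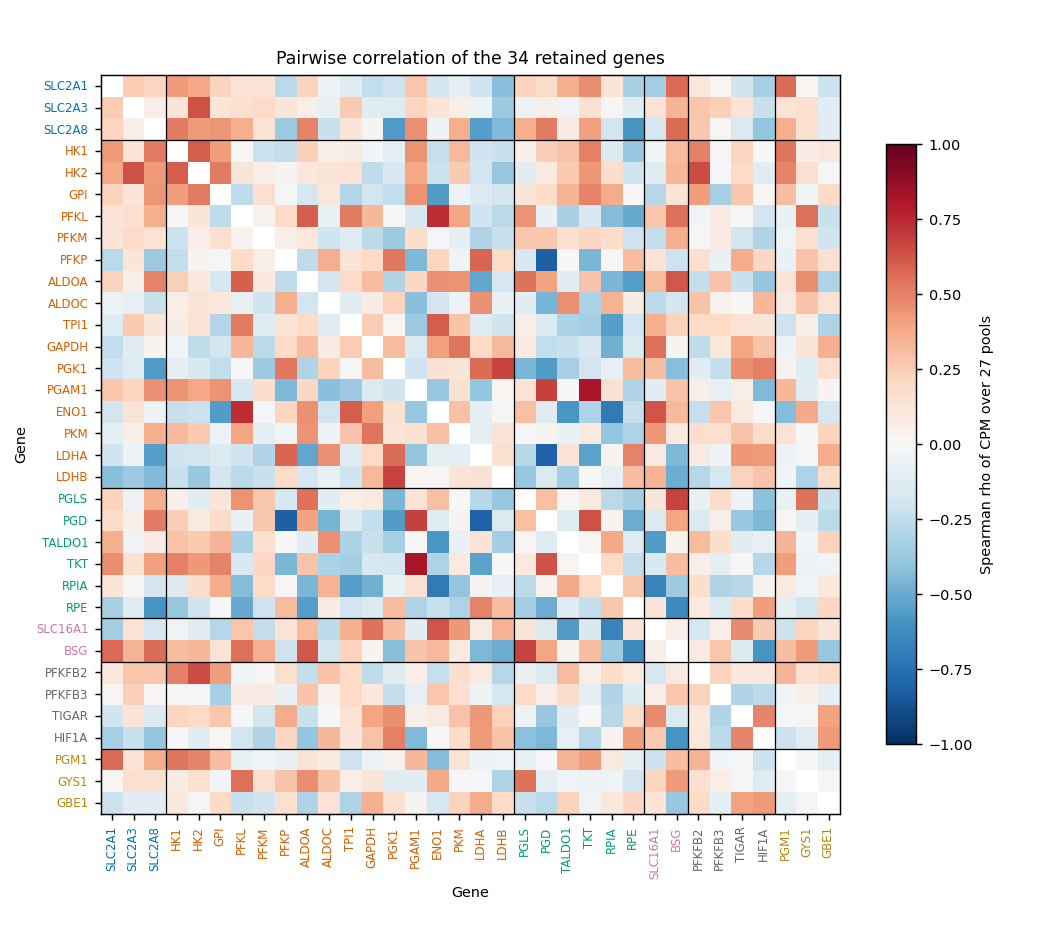
Spearman's rho of CPM over 27 pools for each pair of the 34 retained genes, grouped by role (black lines, coloured names), from blue (-1) to red (1), the diagonal left blank. PGD and TKT are red against PGAM1, PGD is blue against LDHA and PFKP, and the block of glycolytic enzymes mixes both colours, with a median rho of 0.022.

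Y-linked transcripts split the pools into 9 low in them (0.430 to 1.65 CPM) and 18 rich in them (18.9 to 197 CPM), so the genes were fitted within the 18 pools only. None of the 34 genes was called by edgeR, against 0.52% of all genes. An unadjusted p under 0.05 was seen for 7 of them, beside 10.9% of all genes. LDHA came closest, with a slope of -0.32 per doubling (SE 0.080, n = 18, edgeR adjusted p = 0.0759), followed by PGD at 0.22 (SE 0.061, edgeR adjusted p = 0.104). DESeq2 called both, where 1.83% of all genes were called. EdgeR called LDHA without pool 1 (0.309% of all genes) or without pool 21 (0.78%). Without pool 9, the lowest of the 18 pools in Y-linked transcripts, none of the 34 was called, and all genes called went from 64 to 8. Interferon tau and Y-linked transcripts were related within these pools, as given above, and the part of each was not tested.

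Of the 38 genes, PGK1 alone lies on chromosome X (from 74244892 to 74267571). Its level ran from 395 to 627 CPM (median 471) in the 9 pools and from 299 to 574 CPM (median 426) in the 18 others, and the ranges overlapped. The groups of pools were formed from the data and no test was made between them. Other X-linked genes differed in this. PRPS2 ran from 25.5 to 57.9 CPM in the 9 pools and from 17.8 to 59.3 CPM in the 18, of which 3 lay below all of the 9. PRPS1 and PDK3, also X-linked and named after their values were seen, were further apart. The share of all genes, or of X-linked genes, set apart in this way was not counted. PRPS1, which makes the ribose donor for nucleotides, ran from 148 to 240 CPM in the 9 pools and from 75.8 to 148 CPM in the 18, of which 17 lay below all of the 9. PDK3, a kinase that restrains pyruvate dehydrogenase, was between 75.3 and 101 CPM and between 14.6 and 78.2 CPM, and again 17 of the 18 lay below all of the 9. Within the 18 pools PDK3 had a slope of -0.44 on Y-linked transcripts (SE 0.11, edgeR adjusted p = 0.0749). LDHA, on an autosome, ran from 299 to 641 CPM in the 9 pools and from 184 to 549 CPM in the 18, with overlap. PGD ran from 292 to 413 CPM in the 9 and from 274 to 610 CPM in the 18.

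**Figure D5:**
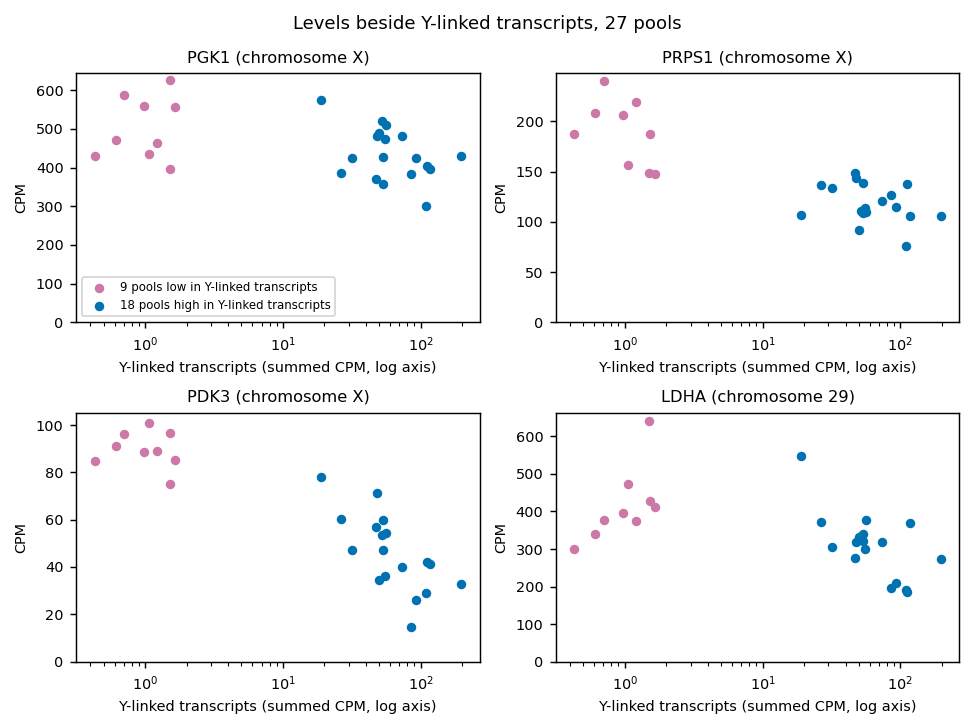
Levels of 4 genes (vertical axes, CPM) against summed Y-linked transcripts (horizontal axes, CPM, log axes) in 27 pools, with the 9 pools low in Y-linked transcripts in pink and the 18 rich in them in blue. PRPS1 and PDK3 are higher in the pink pools with almost no overlap, and PGK1 and LDHA overlap.

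Cell lineage markers and depth were compared in the same way. Against hypoblast markers (SOX17, GATA4, PDGFRA and HNF4A summed, 21.7 to 110 CPM, nearly all from PDGFRA and HNF4A, without GATA6, which early trophectoderm is known to express as well), SLC2A8 (chromosome 11, from 98149418 to 98158448) alone was called among the 34 genes, which is 2.94%, against 0.853% of all genes. In the same fit 10 of the 34 had an unadjusted p under 0.05 in edgeR, beside 17.7% of all genes. The slope of SLC2A8 was 0.52 per doubling (SE 0.12, n = 27, edgeR adjusted p = 0.0297), or 2.29-fold over the range. The call was lost without pool 9, 31 or 36 (adjusted p up to 0.108), where the slope was still at least 0.45. It was also lost within the 18 pools rich in Y-linked RNA (slope 0.53, edgeR adjusted p = 0.138). With GATA6 (median 211 CPM) added to the markers, which then made up most of the sum, the slope of SLC2A8 was 0.28 (SE 0.16, edgeR adjusted p = 0.353). In that fit 4.06% of all genes and 2 of the 34 were called, SLC2A1 higher (slope 0.40, edgeR adjusted p = 0.0214) and LDHB lower (slope -0.30, edgeR adjusted p = 0.0253). ALDOA had a slope of 0.38 on the markers without GATA6 that missed the limit (SE 0.10, edgeR adjusted p = 0.0585). DESeq2 called ALDOA, where 3.49% of all genes were called. So did edgeR without pool 13, 28, 32, 33, 35 or 38, where 1.09% to 1.54% of all genes were called. Against epiblast markers (NANOG and SOX2, 21.7 to 139 CPM) none of the 34 was called by edgeR or DESeq2, against 0.0325% of all genes in edgeR. An unadjusted p under 0.05 in edgeR was seen for 3, beside 7.29% of all genes. Against the total count none was called by either tool, as was 0% of all genes in edgeR, with 3 at an unadjusted p under 0.05, beside 2.76% of all genes.

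Of 79 further genes of glucose metabolism, 78 were found in the table and 58 were retained, and H6PD was not analysed here. The most abundant were MPC1 (540 CPM) and MPC2 (236 CPM), which carry pyruvate into mitochondria, UGP2 (422 CPM), which makes UDP-glucose, GALM (354 CPM), the aldose mutarotase, and SLC2A5 (321 CPM), the fructose carrier, all as medians. SLC2A5 was thus above SLC2A1 in median level. It was 3.10 CPM in pool 26, 97.0 CPM in the next lowest pool and 553 CPM in the highest, so pool 26 stood apart. Against interferon tau 2 of the 58 were called, or 3.45%, near the 2.32% of all genes: PRPS2 was higher (slope 0.19, SE 0.046, edgeR adjusted p = 0.0230) and PFKFB4, a kinase and phosphatase for fructose 2,6-bisphosphate, was lower (slope -0.17, SE 0.046, edgeR adjusted p = 0.0431). Neither was called without pool 9 (edgeR adjusted p = 0.104 and 0.102), and over all pools left out in turn PRPS2 stayed called in 26 and PFKFB4 in 15 of 27 fits. GALM was higher with hypoblast markers (slope 0.39, SE 0.095, edgeR adjusted p = 0.0453), a call that held in 13 of 27 fits with 1 pool left out. Against these markers 12 of the 58 had an unadjusted p under 0.05 in edgeR, beside 17.7% of all genes. None of the 58 was called by edgeR against Y-linked transcripts, epiblast markers or the total count. An unadjusted p under 0.05 was seen for 4, 5 and 0 of them, beside 10.9%, 7.29% and 2.76% of all genes. SLC2A2, PGK2 and SLC16A8 had no count in any pool, and PCK1 and G6PC1, the enzymes of glucose release in liver, were at most 0.0226 and 0.101 CPM.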

How the data were processed

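RNA of 2 blastocysts was combined per pool, and 27 pools were analysed. The authors amplified cDNA with a 3′ SMART-Seq kit, used fastp to trim the forward reads, STAR to map these on ARS-UCD2.0 and featureCounts to count them, and deposited the raw counts per gene, without normalization. Tool versions are not given in the sources used here. Strand use in counting is not stated. All columns were matched to pools by number.

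CPM was the count divided by the pool's total, per 1000000. A gene was retained if 12 or more pools had at least 1 CPM of it, as in the study. Levels are given as lowest, median and highest value, because pools were unassigned. Each retained gene was fitted on 1 continuous measure of the pool with edgeR 4.0.16 (TMM, glmQLFTest), with Benjamini-Hochberg adjustment over all genes tested. DESeq2 1.42.0, RLE scaling, no filter on low counts, the total count as a covariate, a pseudocount of 0.1 and the loss of the highest pool were alternatives. Leaving out each pool, adding GATA6 to the hypoblast markers, adding family members of the wider list to the shares, and fitting within the 18 pools above 10 CPM of Y-linked transcripts, were chosen after seeing the data. Standard errors were derived from the slope and its F statistic. The study drew all pools from 4 IVF replicates, so pools shared replicates as well as bull and laboratory. The fits treated pools as independent, and their p-values may be too small.

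The genes, lists and tests were chosen with earlier results of these data known. Genes were named by a rule: the leading isozyme of each step and its paralogs, called genes, the 5 widest and 5 steadiest, and extreme pairs. Some further pairs, and PRPS1 and PDK3, were named after their values were seen. Planned searches of promoters and proteins were not run. Results for 2 genes of the wider list are not reported here. Positions of all 38 genes were taken from RefSeq on ARS-UCD2.0. In counts simulated for 12310 genes, 200 of them tied to interferon tau, edgeR recovered 19 of 100 at a slope of 0.15 and 69 of 100 at 0.35, with 2 false calls. R 4.3.3, Python 3.11.15, numpy 2.4.6, pandas 2.3.3 and scipy 1.17.1 were used.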

Additional observations from a re-analysis of the deposited data

How the results depend on the processing

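The number of genes retained was 30 to 38 beside 34, within a limit of 1.5 times that 38 genes could not pass upward. The median IQR was 0.373 to 0.386, within a wide limit of 0.204, the standard deviation of the IQR over genes. The median rho of glycolytic enzymes was 0.0069 to 0.037. It stayed within 0.016 of 0.022, the standard deviation over medians with 1 pool left out. With TMM it went from below that of all pairs (0.022 beside 0.025) to above it (0.037 beside -0.0005). Median shares over the 38 genes moved when family members of the wider list were added, for SLC2A3 from 80.3% to 68.1%, HK2 from 77.5% to 52.3%, ENO1 from 99.99% to 95.6%, SLC16A1 from 99.9% to 94.7% and PFKFB3 from 82.1% to 26.95%. The number of the 34 genes called against interferon tau was 6. It was 3 with the total count added (231 of all genes), 0 without pool 9 (45) and 1 inside the 18 pools rich in Y-linked RNA (126). Over the fits that each left out 1 pool it was between 0 and 7 (45 to 375 of all genes). It stayed within 1.5 times 6 with DESeq2, RLE scaling, no filter and the other pseudocount. Against Y-linked transcripts the number was 0, and it was 2 with DESeq2, 1 with all counted genes and 1 without pool 21, the pool highest in them; leaving out 1 pool gave 0 to 1. Against hypoblast markers it was 1, and 2 with DESeq2, 2 with all counted genes, 0 without pool 31, the pool highest in these markers, 2 others with GATA6 added, and 0 within the 18 pools; leaving out 1 pool gave 0 to 2. No slope of a called gene was reversed. The fits with fewer pools had fewer samples, and the cause of the other changes was not tested. All genes called against interferon tau numbered 285 with edgeR, 528 with DESeq2, 917 without a filter and 45 without pool 9. For hypoblast markers they were 105, 430, 802, without pool 31, 23 and, with GATA6, 500. For Y-linked transcripts they were 64, 225, 654, without pool 21, 96 and, without pool 9, 8. For epiblast markers they were 4, 71 and 645. Against the total count they were 0 with edgeR and DESeq2 and 561 without a filter. Genes of a few CPM, such as PFKM, PFKFB2 and GBE1, are limited by depth. No paired analysis was possible because the labels give no groups or replicate numbers.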
